A study of Mus musculus with 24 samples.

Results

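The mouse mitochondrial genome carries 37 genes, and all of them have a row in the count tables of these embryos. Membership follows from the chromosome name (MT) alone, out of 55471 genes, though the set was picked for description with earlier results of these data known. They comprise 13 genes for proteins of the respiratory chain and ATP synthase, 2 for ribosomal RNAs and 22 for transfer RNAs. The study counted polyadenylated RNA in 24 libraries of B6D2F1 embryos, each made from a separate pool of 10 embryos. Zygotes came from superovulated B6D2F1 females, 3 to 4 weeks old, mated with males of that strain, and embryos were grown in KSOM medium. For Ttf1 KO and Zfp622 KO, Cas9 protein was injected into the zygote cytoplasm together with 3 guide RNAs to the named gene, and the wild-type (WT) group served as control. Each genotype was collected at the stage labelled L2C, which is late 2-cell by its markers, and as morulae. This gave 6 groups of 4 libraries. The labels do not say whether WT zygotes were injected with anything, and the letters NC in the WT titles are not explained.

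Mitochondrial DNA is a small circle that is transcribed from both strands by a dedicated polymerase (Polrmt) with its factors Tfam and Tfb2m. The long primary transcripts are cut at the tRNAs that lie between most genes, and most of the released messenger and ribosomal RNAs receive short poly(A) tails. Because polyadenylated RNA was counted, values here also depend on these tails, which were not measured. Its proteins are core subunits of complexes I, III and IV and of ATP synthase, while the remaining subunits and every factor of mitochondrial transcription and RNA processing come from nuclear genes. In preimplantation embryos the mitochondrial genomes are inherited from the egg and are shared out among the dividing cells, with little replication before implantation.

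How these genes can be counted sets what their values mean. The tRNA genes are 59 to 75 bases long, shorter than the 150-base reads, and most touch a neighbouring gene. Fragments that touched several genes were not counted, so a tRNA count here is the number of fragments that touched no neighbouring gene and is not the level of mature tRNA. The 4 tRNA genes on which the results turn are printed below 5′ to 3′ as DNA with the anticodon in capitals, from GENCODE M21 transcripts on GRCm38. The glycine and arginine tRNAs lie on the plus strand at MT:9391-9458 and MT:9808-9875. The threonine tRNA, on the plus strand at MT:15289-15355, and the proline tRNA, on the minus strand at MT:15356-15422, lie side by side after mt-Cytb, and mt-Tp borders the control region, which holds no gene.
mt-Tg: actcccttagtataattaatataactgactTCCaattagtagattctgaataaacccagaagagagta
mt-Tr: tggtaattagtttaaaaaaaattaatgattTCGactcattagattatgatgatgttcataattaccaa
mt-Tt: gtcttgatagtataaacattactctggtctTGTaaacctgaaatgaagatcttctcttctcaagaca
mt-Tp: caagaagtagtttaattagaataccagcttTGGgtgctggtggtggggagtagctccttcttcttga

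A second limit is a stretch of nuclear DNA with almost the same letters. Bases 6390 to 11042 of the mitochondrial genome, 4653 bases, face a row of annotated pseudogenes on the minus strand of chromosome 1, 24611535 to 24616197. Reads that map to both places were not counted, so the genes inside keep only fragments that reach a difference. The gene mt-Co2, for the copper-binding subunit of cytochrome c oxidase (complex IV), had no difference from Gm28661 over its 681 aligned bases. The gene mt-Co1, for the catalytic subunit, had 1 difference from Gm29216 in 483 aligned bases, which are 31.3% of its length. The first 60 bases of mt-Co2 and bases 1063 to 1122 of mt-Co1 are shown with their nuclear copies, with the differing base in capitals.
mt-Co2: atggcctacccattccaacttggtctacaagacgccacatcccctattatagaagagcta
Gm28661: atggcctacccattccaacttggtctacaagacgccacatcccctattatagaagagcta
mt-Co1: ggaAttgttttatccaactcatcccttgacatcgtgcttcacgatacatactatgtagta
Gm29216: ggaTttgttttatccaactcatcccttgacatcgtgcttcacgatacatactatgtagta

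Wholly inside this stretch lie 6 protein genes (mt-Co2, mt-Atp8, mt-Atp6, mt-Co3, mt-Nd3 and mt-Nd4l) and 5 tRNA genes (mt-Ts1, mt-Td, mt-Tk, mt-Tg and mt-Tr), and mt-Co1 and mt-Nd4 lie partly inside. The values of these 13 genes are therefore uncertain. The 6 protein genes took, in the group means, only 2.53% to 3.29% of the protein-coding mitochondrial counts. Over all libraries mt-Atp6, a subunit of the proton channel of ATP synthase, held 54559 counts and its copy Gm10925 held 94054. The library kit does not mark strand. The complex I gene mt-Nd6 and the tRNAs on the minus strand thus cannot be told apart from RNA of the opposite strand.

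Total counts per library ran from 10538723 to 17807596, of which 322228 to 868862 fell on mitochondrial genes. Counting error is thus small for all but the tRNA genes and the protein genes with low counts. The lowest library counts were 123 for mt-Atp8, 243 for mt-Nd4l, 320 for mt-Co3 and 448 for mt-Co2. The summed level of 11 late 2-cell markers was 1120 CPM ± 204 (SD, n = 4) in WT L2C and 42.9 ± 18.9 in WT morula, where CPM are counts relative to the scaled library size. That of 12 morula markers was 2143 ± 82.7 in WT morula and 202 to 216 in the means of the L2C groups. RNA of Ttf1 had log2 fold changes of -1.45 at L2C and -0.76 at morula in its own knockout, and that of Zfp622 had -1.42 and -1.78 in its own. All Ttf1 KO libraries were sequenced in lane 1 and all others in lane 2, so that lane and the Ttf1 comparison cannot be told apart. The Zfp622 comparison lies within lane 2. P-values measure the spread between pools of embryos.

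Per full gene length, cytochrome b, large-subunit ribosomal RNA and complex I subunit 1 had the highest RNA levels in WT embryos. Full lengths include bases facing the nuclear copy, 63.6% of mt-Nd4 and 31.3% of mt-Co1, whose shared reads were not counted. Genes facing the copy may thus rank too low. In WT L2C, mt-Cytb (the complex III subunit that carries electrons from ubiquinol) stood at 9519 CPM per kilobase ± 568 (SD, n = 4), mt-Rnr2 (16S rRNA) at 8323 ± 228 and mt-Nd1 at 7257 ± 523. Then came mt-Co1 at 3378 ± 288, mt-Nd2 at 3215 ± 217, mt-Nd4 at 2550 ± 172 and mt-Rnr1 (12S rRNA) at 2188 ± 80.5. Neighbours such as mt-Co1 and mt-Nd2 differed by less than their spread. In WT morula the order of the first members was mt-Rnr2 at 5581 ± 461, mt-Nd1 at 5461 ± 574 and mt-Cytb at 5047 ± 361, whose spreads overlap. The small ATP synthase gene mt-Atp8 varied most among the protein genes, from 123 to 9355 counts per library. It lies wholly inside the copied stretch, though no pseudogene of its own is annotated there.

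**Figure D1:**
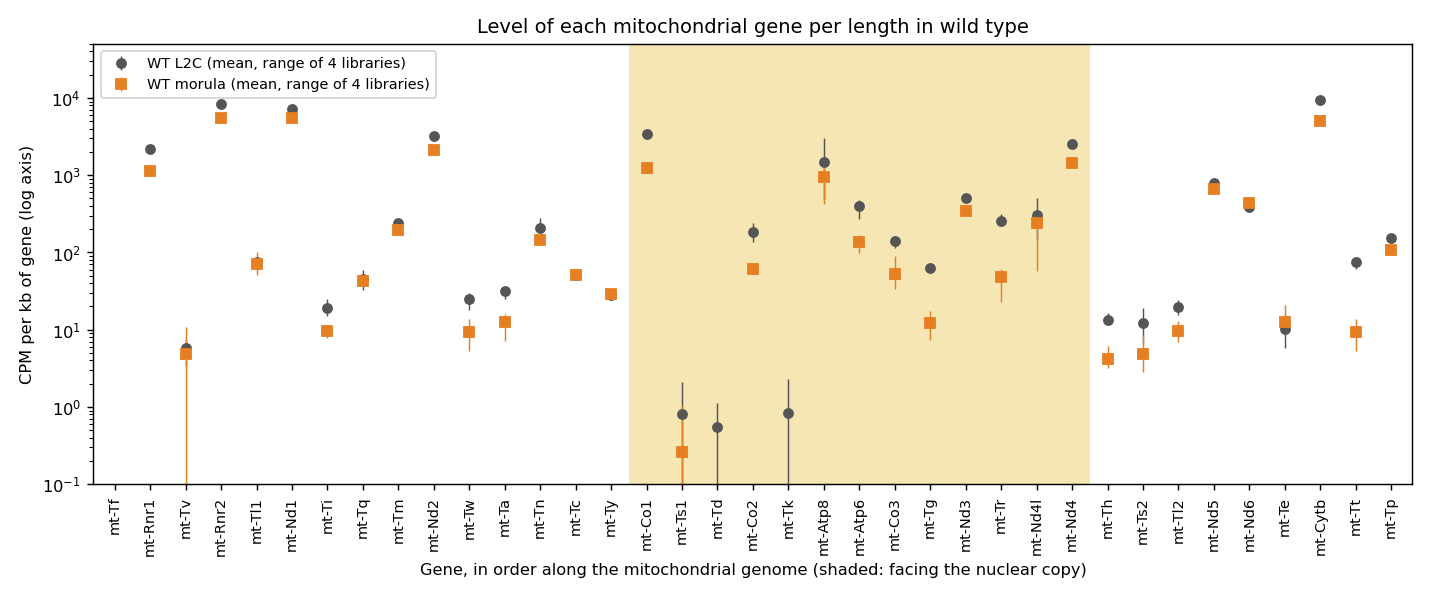
Level of each mitochondrial gene per length in WT L2C and WT morula libraries. The logarithmic axis gives CPM per kilobase; points are means and lines the range of 4 libraries, genes at 0 are not drawn and ranges that reach 0 stop at the edge of the axis. By full gene length mt-Cytb, mt-Rnr2 and mt-Nd1 are highest at both stages, and most tRNA genes lie below the protein and rRNA genes. Genes facing the nuclear copy may rank too low.

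The tRNA genes gave few counts. The gene mt-Tf had 0 counts in all 24 libraries, and mt-Ts1, mt-Td and mt-Tk held 6, 9 and 9 counts over all libraries; these 4 passed the filter on low counts in no fit. In WT L2C the highest per length were mt-Tr (258 CPM per kilobase), mt-Tm (240), mt-Tn (209) and mt-Tp (156). The serine and histidine tRNAs mt-Ts2 and mt-Th were not tested in the morula fit, nor the valine tRNA mt-Tv in the L2C fit. The filter thus left 32 members tested at L2C, 31 at morula and 33 over both stages.

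The share of all counts that fell on mitochondrial genes was lower at morula than at L2C in every genotype. In WT L2C the libraries stood at 6.03%, 5.50%, 5.90% and 5.84%. In WT morula they stood at 2.35%, 2.24%, 2.45% and 2.42%. No morula library reached an L2C library, and the difference of 3.45 percentage points had an exact permutation p of 0.0286 (two-sided, n = 4 and 4), the smallest this design allows, and 0.114 after adjustment over the 28 tests of shares. A share cannot tell more mitochondrial RNA per embryo from less nuclear messenger RNA, and the scaled levels below share that limit.

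Among morulae the mitochondrial share was higher in both knockouts. Ttf1 KO morulae had 3.76%, 3.51%, 3.45% and 3.14%. Zfp622 KO morulae had 3.30%, 2.92%, 2.79% and 3.69%. Neither set overlapped WT morula, each with an exact permutation p of 0.0286 (two-sided, n = 4 and 4, adjusted 0.114), and the knockouts overlapped each other (difference 0.293 percentage points, exact permutation p = 0.286). At L2C the means were 5.82% ± 0.226 in WT, 6.25% ± 0.583 in Ttf1 KO and 6.13% ± 0.525 in Zfp622 KO (SD, n = 4), and all groups overlapped (exact permutation p = 0.229 and 0.314 against WT).

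**Figure D2:**
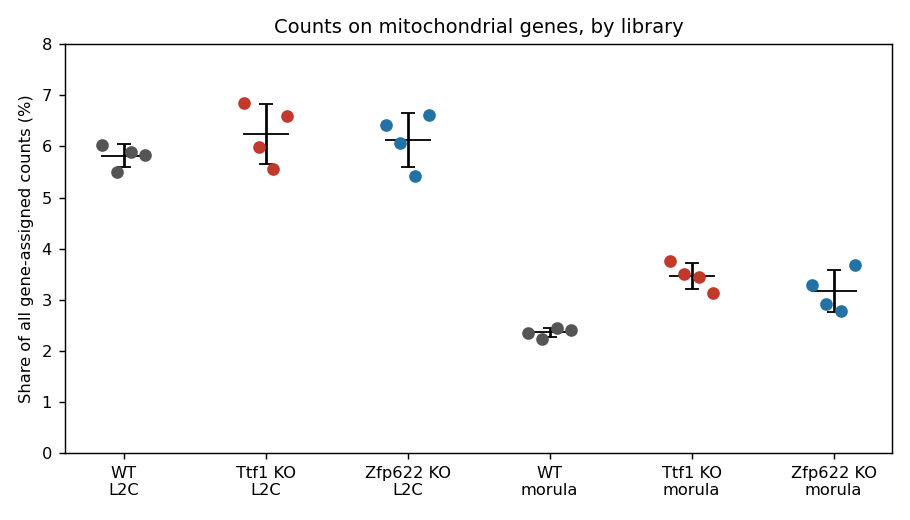
Share of all gene counts that fell on the mitochondrial genes, in percent, for each of the 24 libraries. Points are libraries and bars are means ± SD of 4; the L2C libraries lie above 5%, WT morula between 2.24% and 2.45%, and both knockouts at morula above WT.

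Within the mitochondrial counts, ribosomal RNA made up 31.8% ± 1.76 in WT L2C and 26.8% ± 2.48 in Ttf1 KO L2C (SD, n = 4; the groups did not overlap; exact permutation p = 0.0286, adjusted 0.114). At morula the rRNA share was 34.1% ± 2.03 in WT, 37.4% ± 3.49 in Ttf1 KO (exact permutation p = 0.171) and 34.8% ± 2.67 in Zfp622 KO. The transfer RNA genes held 0.186% ± 0.0254 of the mitochondrial counts in WT morula, 0.244% ± 0.0221 in Ttf1 KO and 0.232% ± 0.0138 in Zfp622 KO. Ttf1 KO overlapped WT (exact permutation p = 0.0571, adjusted 0.16), and Zfp622 KO did not (exact permutation p = 0.0286, adjusted 0.114). The part of mt-Nd6 in the protein-coding counts was 0.611% ± 0.0499 in WT L2C and 1.19% ± 0.101 in WT morula (exact permutation p = 0.0286, adjusted 0.114).

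From L2C to morula most mitochondrial transcripts fell in WT embryos, and none rose. Of 33 members tested over all 24 libraries with edgeR's quasi-likelihood test and Benjamini-Hochberg adjustment over all genes, 23 were lower and 0 higher at an adjusted p of at most 0.05. Of all genes 84% were called in this comparison, 46.1% as lower and 37.9% as higher, the latter a background for the nuclear lists below. In 22 members every morula library lay below every L2C library, as in 43.6% of all genes. The median log2 fold change was -0.64 over the members and -0.30 over all genes tested. With scaling by total counts alone the all-gene median moved by -0.58 to -0.87. A scaling moves all genes by nearly the same amount. The members' distance from that median, -0.34 to -0.36, could thus hardly change and is no check on the scaling. All genes split into 7141 higher and 8701 lower here, and into 5595 and 10420 under total counts.

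Among the protein genes, those of complex IV had some of the lowest fold changes. All 3 were lower, with mt-Co1 at 4881, 4793, 5548 and 5654 CPM in the WT L2C libraries and at 1724, 1673, 2181 and 2074 in WT morula. Every morula library lay under every L2C library, and the log2 fold change was -1.45 (SE 0.10, edgeR adjusted p = 1.12e-13). The copper-binding subunit mt-Co2 changed by -1.57 and mt-Co3 by -1.38, both within the nuclear copy. Of the pseudogenes there, Gm28438 (-0.84), Gm28661 (-1.38), Gm29216 (-1.45), Gm28439 (-1.71), Gm28437 (-1.82) and Gm10925 (-2.25) fell as well, and Gm10222 (-0.38) did not pass.

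Cytochrome b, the only mitochondrial gene of complex III, stood at 10791, 10103, 10980 and 11685 CPM in WT L2C and at 5703, 5515, 6378 and 5500 in WT morula. It fell by 0.92 on the log2 scale (SE 0.11, edgeR adjusted p = 1.46e-08), with no overlap between stages. Of the 7 complex I genes, which form the membrane arm of NADH dehydrogenase, 5 fell, each with a smaller fold change than the complex IV genes. These were mt-Nd4 (-0.83), mt-Nd2 (-0.59), mt-Nd3 (-0.54), mt-Nd1 (-0.41) and mt-Nd5 (-0.26), and mt-Nd4l had -0.37 (edgeR adjusted p = 0.507). The call of mt-Nd5 was lost without WT L2C library 1, WT morula library 2 or WT morula library 3 (edgeR adjusted p from 0.0504 to 0.0848). Of the ATP synthase genes mt-Atp6 fell by 1.57 on the log2 scale (edgeR adjusted p = 9.98e-06) and mt-Atp8 had -0.64 (adjusted p = 0.596).

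The only protein gene on the minus strand, mt-Nd6, did not pass the test. It stood at 210, 201, 192 and 192 CPM in WT L2C and at 224, 215, 219 and 245 in WT morula. The morula libraries were all slightly higher, but the log2 fold change was 0.18 (SE 0.11, edgeR adjusted p = 0.133), which turned to -0.39 under total counts (edgeR adjusted p = 0.00163). Relative to the median of all genes mt-Nd6 was 0.48 higher on the log2 scale. This distance was not tested, and a scaling can hardly change it, since it moves all genes nearly alike.

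Both ribosomal RNAs fell. The 12S gene mt-Rnr1 went from 2090 CPM ± 76.9 to 1096 ± 81 (SD, n = 4), a log2 fold change of -0.93 (edgeR adjusted p = 1.79e-07), and the 16S gene mt-Rnr2 from 13168 ± 361 to 8829 ± 730, a log2 fold change of -0.58 (edgeR adjusted p = 1.87e-05). Neither overlapped between stages, and the 12S RNA changed by more than the 16S RNA in the fitted values, a difference that was not tested.

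Transfer RNA genes held the lowest fold changes of the stage comparison. For mt-Tt, the threonine tRNA printed above, the WT L2C libraries had 4.15, 4.97, 5.74 and 5.48 CPM and the WT morula libraries 0.921, 0.662, 0.355 and 0.534, a log2 fold change of -3.04 (SE 0.37, edgeR adjusted p = 1.05e-08). The arginine tRNA mt-Tr had 17.5, 15.4, 21.2 and 16.2 CPM against 3.68, 3.56, 1.56 and 4.12, a log2 fold change of -2.45 (SE 0.24, edgeR adjusted p = 1.06e-10). The glycine tRNA mt-Tg had 4.58, 4.65, 4.18 and 3.83 CPM against 1.17, 0.744, 0.497 and 0.916, a log2 fold change of -2.37 (SE 0.32, edgeR adjusted p = 8.49e-08). In all of these genes the highest morula library lay below the lowest L2C library. The WT morula values rest on few fragments, 11, 8, 5 and 7 counts for mt-Tt and 14, 9, 7 and 12 for mt-Tg. Also lower were mt-Th (-1.69), mt-Tw (-1.45), mt-Ta (-1.33), mt-Ts2 (-1.26), mt-Tl2 (-1.02), mt-Ti (-0.98), mt-Tp (-0.55) and mt-Tn (-0.54). The call of mt-Tn was lost without WT L2C library 2 (edgeR adjusted p = 0.0617), and that of mt-Ts2 in 5 of the 8 fits that each left out 1 WT library (0.0833 to 0.140).

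The tRNA genes of the strands had different counts of calls in the stage comparison. Of 11 plus-strand tRNA genes tested 8 were lower, with a median log2 fold change of -1.26. Of 7 minus-strand ones 3 were lower, with a median of -0.08. Those near 0 included mt-Tc (0.00) and mt-Ty (0.03), which carry cysteine and tyrosine. The difference between strands was not tested.

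**Figure D3:**
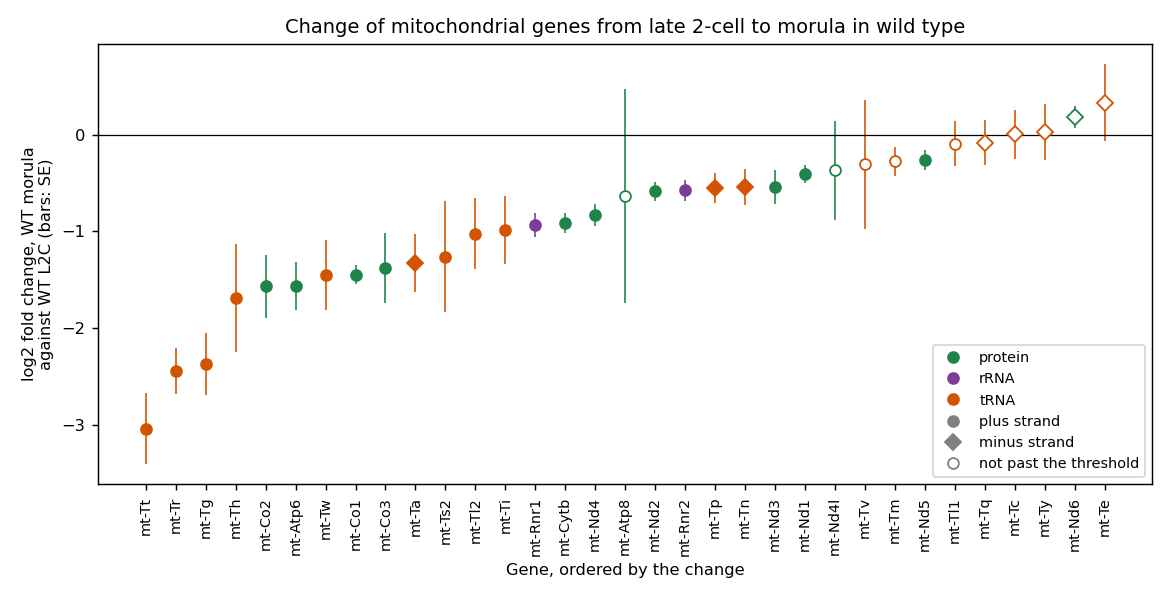
Log2 fold change of each tested mitochondrial gene from WT L2C to WT morula, with bars of 1 standard error. Colour marks protein, rRNA and tRNA genes, diamonds mark genes on the minus strand and open symbols genes that did not pass the test; mt-Tt, mt-Tr and mt-Tg are lowest and mt-Nd6 lies just above 0.

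Nuclear genes for the same complexes went the other way. Of 83 nuclear oxidative phosphorylation subunits tested 76 were higher at WT morula and 6 lower, with a median log2 fold change of 2.29. Of 54 genes for mitochondrial RNA processing, modification and turnover 34 were higher and 12 lower, with a median of 0.71. Lrpprc, which binds and stabilises mitochondrial messenger RNA, rose by 4.38 on the log2 scale, while the polymerase gene Polrmt had a log2 fold change of -0.05.

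In Ttf1 KO embryos at L2C 1 mitochondrial gene rose and none fell. Ttf1 encodes the factor that binds the terminator of ribosomal DNA transcription by RNA polymerase I. The gene was the proline tRNA mt-Tp, at 31, 25.4, 20.2 and 23.7 CPM in Ttf1 KO and 13.7, 11.1, 14.2 and 12.4 in WT. The lowest knockout library was above the highest WT library, and the log2 fold change was 0.96 (SE 0.15, edgeR adjusted p = 0.00348). Of all genes 1.54% were called in this comparison, 0.739% as higher and 0.799% as lower, against 1 of 32 members. The groups did not overlap for 4 members, 2 higher and 2 lower, and for 9.94% of all genes. At an unadjusted p under 0.05 in edgeR there were 8 members, a count with no share of all genes beside it to judge it by.

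None of the other 31 members passed the test at L2C. Both ribosomal RNAs were lower in every Ttf1 KO library than in any WT library without passing the test, with log2 fold changes of -0.32 (SE 0.10, edgeR adjusted p = 0.121) for mt-Rnr1 and -0.16 (edgeR adjusted p = 0.314) for mt-Rnr2. Without Ttf1 KO L2C library 1, the highest of its group for mt-Rnr1, that gene had -0.40 and passed (edgeR adjusted p = 0.04996). The leucine tRNA mt-Tl1 was higher in every knockout library than in any WT library, with 0.53 (edgeR adjusted p = 0.232), and mt-Co2, in the nuclear copy, had -0.59 with overlapping groups (edgeR adjusted p = 0.161). The complex I gene mt-Nd1 had 0.29 (edgeR adjusted p = 0.0955). The protein genes ran from -0.83 for mt-Atp8 to 0.54 for mt-Nd4l, both in the nuclear copy. The late 2-cell markers summed to 567.6 to 914 CPM in Ttf1 KO L2C and to 838 to 1317 in WT L2C, and their part in these results was not tested.

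In Zfp622 KO embryos at L2C 0 of 32 members passed the edgeR test, where 0.0179% of all genes did. Zfp622 encodes a zinc finger protein, the counterpart of a yeast factor that helps mature the large ribosomal subunit. DESeq2 also called 0 members, and 3 had an unadjusted edgeR p under 0.05, again with no share of all genes to judge it by. The groups did not overlap for 2 members, both higher, and for 3.21% of all genes. The protein genes ran from -0.58 to 0.20 on the log2 scale. For mt-Tp the Zfp622 KO libraries had 16.4, 17.8, 16.1 and 17.3 CPM, all above the WT libraries given before, with a log2 fold change of 0.40 (edgeR adjusted p = 0.711). The late 2-cell markers summed to 644 to 1330 CPM in this group, and their part was not tested.

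At the morula stage 21 of 31 tested members rose in Ttf1 KO and none fell (edgeR, adjusted p of at most 0.05). Over all genes 39.2% were called, 21.3% as higher and 17.9% as lower. The median log2 fold change was 0.89 over the members and 0.04 over all genes, and all 31 members were above 0. In 19 members every knockout library was above every WT library, as in 19.1% of all genes. Of the 21 calls 17 were kept in every fit that left out 1 library.

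Within complex I, 5 of 7 genes rose. The gene mt-Nd2 had 1786, 1733, 1864 and 1853 CPM in WT and 3359, 3084, 2930 and 2463 in Ttf1 KO, a log2 fold change of 0.71 (SE 0.09, edgeR adjusted p = 1.74e-05). All knockout libraries were higher, and library 4 was the lowest of them. The others were mt-Nd3 (0.89), mt-Nd4 (0.60), mt-Nd5 (0.60) and mt-Nd6 (0.56). The gene mt-Nd1 was an exception, with 3876, 4037, 4755 and 4345 CPM in WT and 5449, 4678, 4622 and 4562 in Ttf1 KO. There the groups overlapped, and the log2 fold change of 0.18 (SE 0.08) did not pass (edgeR adjusted p = 0.0708), though it did without WT morula library 3 (0.22, edgeR adjusted p = 0.0486).

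Cytochrome b rose from 4639, 4572, 5076 and 4511 CPM in WT to 8163, 6769, 7350 and 6194 in Ttf1 KO, a log2 fold change of 0.60 (SE 0.09, edgeR adjusted p = 9.94e-05). In complex IV mt-Co1 rose from 1402, 1387, 1736 and 1701 CPM to 2381, 2149, 2072 and 2050, a log2 fold change of 0.47 (SE 0.08, edgeR adjusted p = 0.000391). Neither gene overlapped between the groups. For mt-Co3 the log2 fold change was 1.18 (SE 0.40, edgeR adjusted p = 0.0378), but the call was lost in 6 of 8 fits that left out 1 library (WT 1, 2 or 3, or Ttf1 KO 2, 3 or 4), with adjusted p from 0.0781 to 0.102. The rest did not pass the edgeR test: mt-Co2 had 0.32 (adjusted p = 0.55), mt-Atp8 0.30 (0.817), mt-Atp6 0.11 (0.771) and mt-Nd4l 0.58 (0.418), all within the nuclear copy. Of the genes called in this comparison, mt-Nd3, mt-Co3, mt-Tr and mt-Tg also lie wholly within it, and mt-Co1 and mt-Nd4 partly. Among the pseudogenes Gm28438, which faces mt-Nd3, rose by 0.92 (edgeR adjusted p = 0.000144). The others did not pass, from -0.39 for Gm28437, which faces mt-Co3, to 1.02 for Gm28439.

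Both ribosomal RNAs rose in Ttf1 KO morulae. The 16S gene mt-Rnr2 had 7547, 6489, 6971 and 7753 CPM in WT and 10627, 13056, 12564 and 10738 in Ttf1 KO, a log2 fold change of 0.71 (SE 0.12, edgeR adjusted p = 0.000722). The 12S gene mt-Rnr1 had 947, 823, 851 and 949 CPM against 1277, 1451, 1503 and 1270, a log2 fold change of 0.62 (SE 0.13, edgeR adjusted p = 0.00199). The groups were apart for both genes.

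Of 16 tRNA genes tested 11 rose, with a median log2 fold change of 1.03 over the 16. The methionine tRNA mt-Tm had 13.7, 10.8, 9.44 and 10.6 CPM in WT and 24.5, 25.7, 23.5 and 19.6 in Ttf1 KO, a log2 fold change of 1.07 (SE 0.13, edgeR adjusted p = 2.07e-05). The arginine tRNA mt-Tr had 3, 2.95, 1.24 and 3.38 CPM against 10.8, 6.87, 8.41 and 6.53, a log2 fold change of 1.63 (SE 0.27, edgeR adjusted p = 0.000223). The threonine tRNA mt-Tt had 0.749, 0.548, 0.283 and 0.438 CPM against 2.72, 1.65, 1.68 and 1.04, a log2 fold change of 1.82 (SE 0.43, edgeR adjusted p = 0.00331). Knockout libraries were all higher for these 3 genes, and the WT values of mt-Tt rest on the few counts given above. For mt-Tp, the gene called at L2C, the values were 5.04, 5.9, 5.94 and 6.33 CPM against 13, 12, 13.8 and 9.4, a log2 fold change of 1.05 (SE 0.15, edgeR adjusted p = 7.19e-05), again without overlap.

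The remaining tRNA calls were mt-Ti (1.43), mt-Tg (1.28), mt-Ta (1.05), mt-Te (1.00), mt-Tl1 (0.98), mt-Ty (0.92) and mt-Tq (0.91). Each of 3 was lost in some fits without 1 library: mt-Ta without WT 2, WT 3 or Ttf1 KO 2 (edgeR adjusted p from 0.0557 to 0.0752), mt-Ty without WT 1, 2 or 3 or Ttf1 KO 2 (0.0602 to 0.183) and mt-Te without WT 1, 2 or 3 or Ttf1 KO 1, 2 or 3 (0.0606 to 0.116). The tRNA genes mt-Tv, mt-Tw, mt-Tn, mt-Tc and mt-Tl2 did not pass. Of these mt-Tv passed without WT 1 (edgeR adjusted p = 0.0357), mt-Tw without WT 2 (0.0449) and mt-Tn without Ttf1 KO 4 (0.00918). Without Ttf1 KO 2 the fold change of mt-Ty was 0.53 on the log2 scale.

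**Figure D4:**
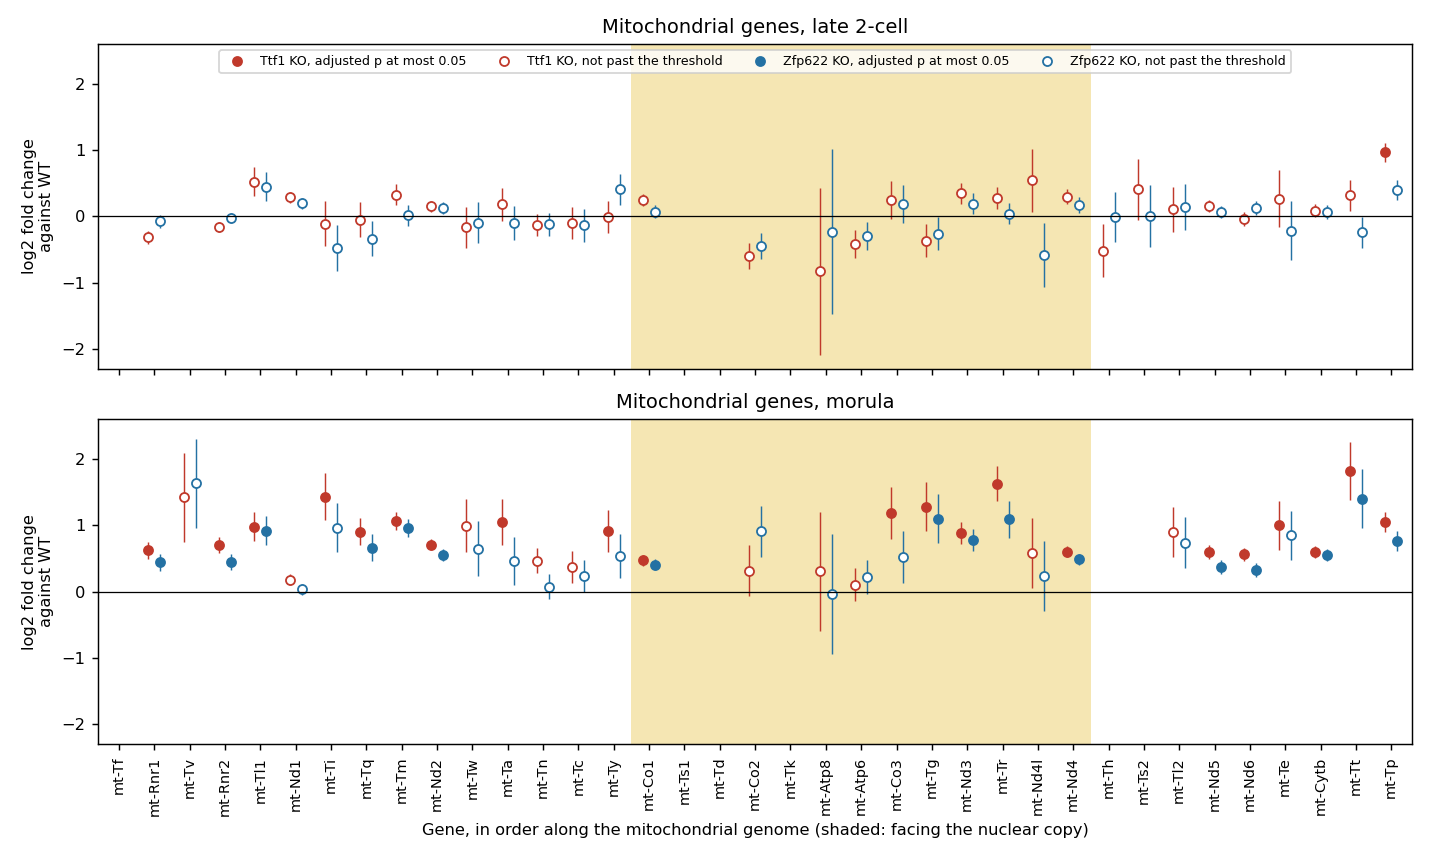
Log2 fold change of each mitochondrial gene against WT of the same stage, for Ttf1 KO and Zfp622 KO at L2C and morula, with bars of 1 standard error. Filled symbols passed the edgeR test at an adjusted p of at most 0.05 and shading marks genes that face the nuclear copy; at morula all points but that of mt-Atp8 in Zfp622 KO lie above 0, and at L2C only mt-Tp of Ttf1 KO is filled.

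In Zfp622 KO morulae 16 of 31 tested members rose and none fell (edgeR), where 29.1% of all genes were called, 15.6% as higher and 13.5% as lower. The median log2 fold change was 0.56 over the members and 0.03 over all genes, and 30 members were above 0. The groups did not overlap in 15 members, all higher, as in 15.6% of all genes. Leaving out WT morula library 3 reduced the count to 9, and 9 of the 16 calls were kept in every fit that left out 1 library. Without WT morula libraries 3 and 4, which carry a second index number, 8 were called. Over all genes these fits called 3499 of 15305 and 2043 of 15860, against 4321 of 14865 in the full fit.

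The protein genes that rose were again of complexes I, III and IV. For mt-Nd2 the Zfp622 KO libraries had 2815, 2572, 2324 and 2929 CPM, all above WT, a log2 fold change of 0.56 (SE 0.09, edgeR adjusted p = 0.000241). For mt-Cytb they had 7118, 6773, 5902 and 7890 CPM, all above WT, a log2 fold change of 0.56 (SE 0.09, edgeR adjusted p = 0.000314). For mt-Co1 they had 2086, 2058, 1832 and 2274 CPM, all above WT, a log2 fold change of 0.41 (SE 0.08, edgeR adjusted p = 0.00216). The other calls were mt-Nd3 (0.78), mt-Nd4 (0.49), mt-Nd5 (0.37) and mt-Nd6 (0.32), while mt-Nd1 had 0.03 (SE 0.08, edgeR adjusted p = 0.786) with overlapping libraries. Of these calls mt-Nd3 lies wholly within the nuclear copy, and mt-Co1 and mt-Nd4 partly. The calls of mt-Nd5 and mt-Nd6 were lost without WT 2, WT 3 or Zfp622 KO 4, and that of mt-Nd6 also without WT 1 or Zfp622 KO 1 (edgeR adjusted p up to 0.0599 and 0.132). Without Zfp622 KO 4 the log2 fold changes of mt-Nd5 and mt-Nd6 were 0.24 and 0.21.

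For the ribosomal RNAs, mt-Rnr2 had 9772, 8484, 8301 and 12714 CPM in Zfp622 KO, a log2 fold change of 0.45 (SE 0.12, edgeR adjusted p = 0.0161). The 12S gene mt-Rnr1 had 1221, 1061, 963 and 1609 CPM, a log2 fold change of 0.44 (SE 0.13, edgeR adjusted p = 0.0203). Library 4 was the highest for both, and all libraries were above WT. Without library 4 the log2 fold changes were 0.28 for mt-Rnr2 and 0.26 for mt-Rnr1, and both still passed (edgeR adjusted p = 0.0260 and 0.0398). Both calls were lost without WT 2 or WT 3 (edgeR adjusted p up to 0.0501 for mt-Rnr2 and 0.0643 for mt-Rnr1).

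Of 16 tRNA genes 7 rose in Zfp622 KO morulae, with a median log2 fold change of 0.81 over the 16. The methionine tRNA mt-Tm had 21.1, 22.1, 19.1 and 24.6 CPM, all above WT, a log2 fold change of 0.96 (SE 0.13, edgeR adjusted p = 0.000113). The other calls were mt-Tt (1.40), mt-Tg (1.10), mt-Tr (1.09), mt-Tl1 (0.92), mt-Tp (0.76) and mt-Tq (0.66). Of these mt-Tq and mt-Tt were lost without WT 3, WT 4 or Zfp622 KO 4, and mt-Tg without WT 2, 3 or 4 or Zfp622 KO 1 or 4 (edgeR adjusted p up to 0.0818, 0.128 and 0.138). Genes that did not pass in the full fit passed without 1 library, mt-Tv without WT 1 (edgeR adjusted p = 0.0308) and mt-Te without WT 4 (0.0370).

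**Figure D5:**
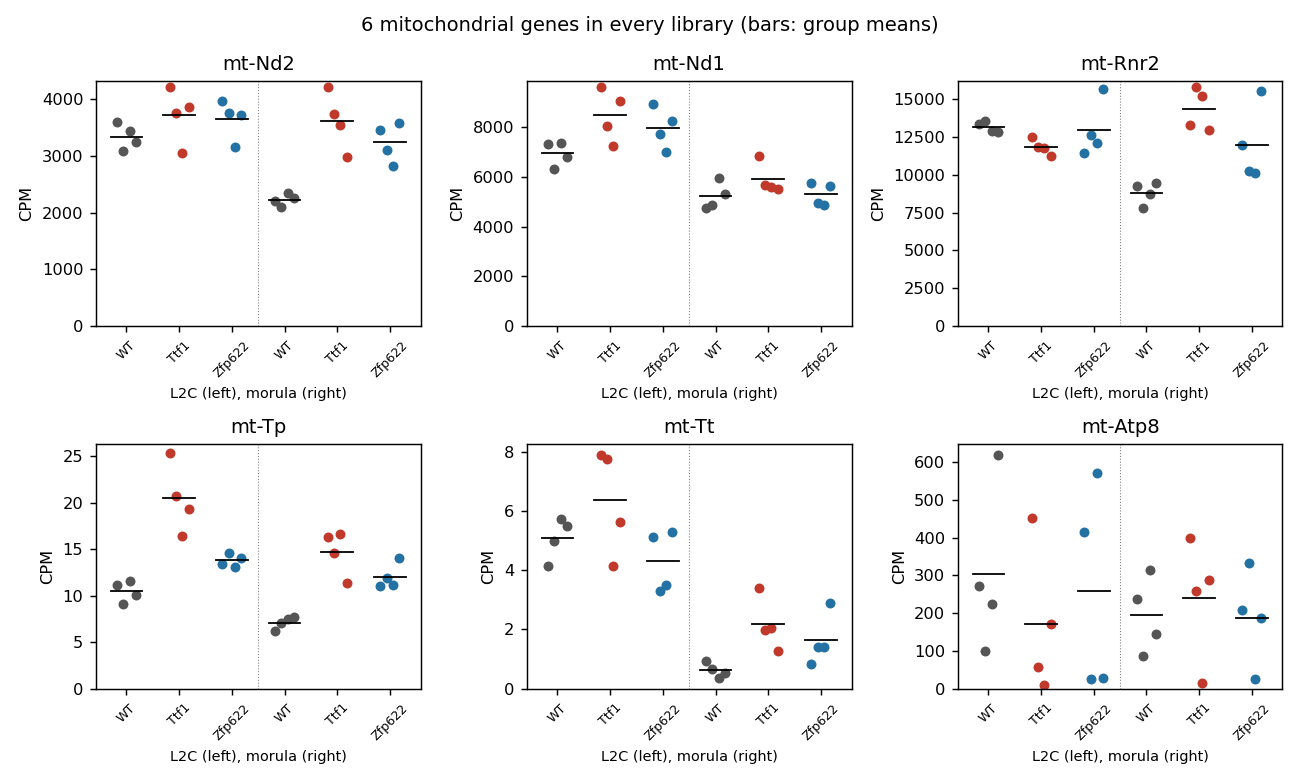
Level of 6 mitochondrial genes in every library, in CPM scaled over all 24 libraries. Points are libraries and bars are group means; at morula both knockouts lie above WT for mt-Nd2, mt-Rnr2 and mt-Tp, while for mt-Nd1 the groups overlap and mt-Atp8 varies widely within groups.

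Both comparisons at morula share the WT libraries, so they are given side by side only. Tested against each other, the knockouts differed in 0 of 31 members by edgeR and 0 by DESeq2, and edgeR called 0.229% of all genes. At an unadjusted edgeR p under 0.05 were 2, mt-Nd5 and mt-Nd6, with no share of all genes to judge it by. The median log2 difference was 0.18 over the members and 0.002 over all genes. In all, 28 members were higher in Ttf1 KO, with no share of all genes to judge it by. This comparison also sets lane 1 against lane 2, and the 2 cannot be told apart. Without Zfp622 KO library 4 mt-Rnr2 was called, 0.40 higher in Ttf1 KO on the log2 scale (edgeR adjusted p = 0.0414).

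Some marker sums of the knockout morulae lay apart from WT, and others overlapped WT. The 12 morula markers summed to 2056 to 2237 CPM in WT, 1393 to 1661 in Ttf1 KO and 1325 to 1739 in Zfp622 KO. In each knockout 5 of the 12 fell and 1 rose by the edgeR test, where 39.2% (Ttf1 KO) and 29.1% (Zfp622 KO) of all genes were called. The 11 late 2-cell markers summed to 21.9 to 62.0 CPM in WT, 33.4 to 159 in Ttf1 KO and 61.8 to 93.5 in Zfp622 KO, against a mean of 1120 in WT L2C. The 14 blood markers summed to 12.4 to 16.7 CPM, 26.6 to 45.4 and 33.3 to 45.7, most of it from Cd68. Only 2 of them were tested, Cd68 and Hba-a1, and both were called higher in both knockouts. The 11 sperm markers summed to 18.4 to 24.1 CPM in WT, 18.2 to 28.0 in Ttf1 KO and 26.1 to 35.3 in Zfp622 KO, most of it from Odf2, with Prm2 higher in both knockouts by the edgeR test and Odf2 in Zfp622 KO. The 13 cumulus and granulosa markers summed to 19.7 to 27.9, 25.9 to 35.4 and 25.3 to 30.5 CPM, most of it from Amhr2, which was called higher in Ttf1 KO. Their part in the mitochondrial results was not tested.

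The size of the knockout effect differed between stages for some genes. In the Ttf1 KO interaction 12 of 33 members had a larger effect at morula and 0 a smaller one (edgeR), where 21.2% of all genes were called and 12.5% in that direction. The smallest adjusted p-values were those of the ribosomal RNAs, mt-Rnr1 with a difference of log2 fold changes of 0.93 (edgeR adjusted p = 0.000525) and mt-Rnr2 with 0.85 (0.000236), while the tRNA genes mt-Tg (1.64), mt-Ti (1.53), mt-Tt (1.501), mt-Tr (1.35) and mt-Tq (0.94) had larger differences. Of the 12 calls 8 were kept in every fit that left out 1 library. The call of mt-Nd5 was lost in 11 of 16 such fits, that of mt-Tq in 10, that of mt-Tt in 4 and that of mt-Ti in 1, without Ttf1 KO morula library 3. Without the WT libraries with a second index number, L2C 4 and morula 3 and 4, 5 were called. Over all genes that fit called 2132 of 19953, against 3992 of 18864 in the full fit. For mt-Tp, raised at both stages, the difference was 0.08 (edgeR adjusted p = 0.843). In the Zfp622 KO interaction 7 of 33 members had a larger effect at morula, where 10.7% of all genes were called and 6.45% in that direction, and leaving out single libraries gave 1 to 9. Without the same 3 WT libraries 0 members were called, and 646 of 19953 genes against 2010 of 18864 in the full fit. Its smallest adjusted p was that of mt-Tm, with a difference of 0.93 (edgeR adjusted p = 0.00542), the only one of these 7 kept in every fit that left out 1 library.

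Among the nuclear genes for mitochondrial transcription, calls in the knockout morulae went in both directions. Of 18 genes for mitochondrial transcription and its regulators 3 rose and 4 fell in Ttf1 KO, near the share of all genes called there (39.2%). Tfam, which packages and activates mitochondrial DNA, had 84.8, 75.3, 75.6 and 75.3 CPM in WT and 60.1, 54.8, 43.6 and 52.4 in Ttf1 KO, a log2 fold change of -0.56 (edgeR adjusted p = 0.00039). In Zfp622 KO, where again 3 rose and 4 fell and 29.1% of all genes were called, Tfam had 58.1, 52.8, 66.8 and 59.6 CPM, a log2 fold change of -0.39 (edgeR adjusted p = 0.0078). All knockout libraries were lower than WT. Tfb2m, which helps the polymerase open its promoters, rose by 0.41 in Ttf1 KO and 0.29 in Zfp622 KO, and Polrmt had -0.18 in both (edgeR adjusted p = 0.178 and 0.207).

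Of 54 genes for mitochondrial RNA processing, modification and turnover, 4 rose and 30 fell in Ttf1 KO morulae (median log2 fold change -0.37), and 1 rose and 22 fell in Zfp622 KO (median -0.26). Of all genes 17.9% were called lower and 21.3% higher in Ttf1 KO, and 13.5% and 15.6% in Zfp622 KO. Lrpprc had 179, 158, 168 and 181 CPM in WT, 88.1, 76.1, 85.3 and 96.4 in Ttf1 KO (log2 fold change -0.99, edgeR adjusted p = 3.56e-06) and 110, 90.6, 102 and 80.9 in Zfp622 KO (-0.84, 3.3e-05). No knockout library reached WT. Nsun2, an RNA cytosine methyltransferase, fell by 0.68 and 0.56 on the log2 scale, and Fastkd5, needed to process transcripts that tRNAs do not flank, by 1.18 in Ttf1 KO.

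Of 25 genes for mitochondrial DNA replication and the nucleoid 2 rose and 7 fell in Ttf1 KO morulae, and 2 rose and 5 fell in Zfp622 KO, near the 39.2% and 29.1% of all genes called. Lig3, the mitochondrial DNA ligase, fell by 0.93 and 0.84 on the log2 scale, and Rrm2b, a ribonucleotide reductase subunit that supplies deoxynucleotides, rose by 1.12 and 0.99. Of 81 nuclear oxidative phosphorylation subunits 15 rose and 20 fell in Ttf1 KO (median -0.01), and 13 rose and 11 fell in Zfp622 KO, again near those shares. Atp5a1, a catalytic-core subunit of ATP synthase, fell by 0.50 in Ttf1 KO, and Ndufb6 of complex I rose by 0.90. At L2C, where 1.54% of all genes were called in Ttf1 KO, the calls were 1 of 53 RNA processing genes and 2 of 83 oxidative phosphorylation subunits: Hsd17b10, a subunit of mitochondrial RNase P, rose by 1.26 (edgeR adjusted p = 0.032), Ndufc1 fell by 0.62 and Cox6c fell by 0.40. In Zfp622 KO at L2C none was called.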

How the data were processed

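Count values of read pairs per gene were used as deposited by the authors, 1 table per library. Reads of 150 bases were aligned with HISAT2 2.2.1 and assigned with featureCounts 2.0.1, per the submitters' processing notes, to exons of Ensembl release 99 on GRCm38 without a strand option or multiple mapping, per the file headers. Groups came from sample titles, since genotype and strain labels count upward within groups. Genes kept by filterByExpr of edgeR 4.0.16 (R 4.3.3) were scaled by TMM and tested with robust quasi-likelihood fits, within a stage for the knockouts (12 libraries) and over 24 libraries for stage and interactions, with Benjamini-Hochberg adjustment over all genes, a threshold of 0.05 and a prior count of 2. Shares were compared by two-sided exact permutation tests over libraries. DESeq2 1.42.0, other scalings, no filter, the replicate number as a block and leaving out each library were alternatives. Named are all protein and rRNA genes, tRNA genes called in any comparison and up to 4 members per nuclear list. Pseudogenes were aligned to mitochondrial genes with Biopython 1.88. The members and lists were chosen with earlier results of these data known. The fits were tested on simulated data.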

Additional observations from a re-analysis of the deposited data

Results flagged for a closer look

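In 14 of 222 groups of 4 libraries tested for a library far from the other 3, 1 library stood apart, and chance flags about 1 in 20 groups. Levels are CPM scaled over all 24 libraries, and the median of the other 3 libraries follows each value. Among Ttf1 KO L2C libraries these were library 1 for mt-Rnr1 (1995 against 1597) and mt-Tl2 (2.66 against 1.17), library 2 for the mt-Nd6 share of protein-coding mitochondrial counts (0.570% against 0.507%), library 3 for mt-Atp6 (280.8 against 179.8) and library 4 for mt-Tq (2.43 against 3.28). Among Ttf1 KO morulae they were library 1 for mt-Nd1 (6831 against 5590) and library 4 for mt-Tn (9.01 against 15.65) and for the tRNA share of mitochondrial counts (0.211% against 0.254%). Zfp622 KO L2C library 3 stood apart for mt-Cytb (9202 against 12120), mt-Tv (1.06 against 0.619) and mt-Te (0.791 against 0.543), and Zfp622 KO morula library 1 for mt-Co2 (158 against 50.29). In WT, mt-Tn was 19.88 CPM in L2C library 2 (others 13.11) and mt-Te 1.45 CPM in morula library 4 (others 0.662).

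The knockout effect differed between the stages in an edgeR interaction test for 19 results, all larger at morula. For Ttf1 KO the differences of log2 fold changes were 0.93 for mt-Rnr1, 0.85 for mt-Rnr2, 1.53 for mt-Ti, 0.94 for mt-Tq, 0.73 for mt-Tm, 0.55 for mt-Nd2, 1.64 for mt-Tg, 1.35 for mt-Tr, 0.43 for mt-Nd5, 0.59 for mt-Nd6, 0.50 for mt-Cytb and 1.501 for mt-Tt. For Zfp622 KO they were 0.46 for mt-Rnr2, 0.93 for mt-Tm, 0.42 for mt-Nd2, 1.35 for mt-Tg, 1.04 for mt-Tr, 0.47 for mt-Cytb and 1.63 for mt-Tt. For Ttf1 KO the calls of mt-Nd5, mt-Tq, mt-Tt and mt-Ti were lost in 11, 10, 4 and 1 of 16 fits that left out 1 library, and for Zfp622 KO 6 of the 7 were lost in some such fit, all but mt-Tm.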

How the results depend on the processing

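The count of members called in Ttf1 KO morulae was 21, ranged from 16 to 22 over the alternatives and from 17 to 21 with 1 library left out, and the stage count of 23 from 19 to 28. In Ttf1 KO at L2C (1 called) DESeq2 called 2, no filter 7, and a fit on the compared groups alone 2; leaving out 1 library gave 1 to 2. Without the WT libraries with a second index number, Zfp622 KO morulae had 8 (16 called otherwise; 9 to 16 with 1 library left out), the Ttf1 interaction 5 (12; 9 to 13) and the Zfp622 interaction 0 (7; 1 to 9; 4 with DESeq2 size factors). Counts over all genes moved as well. In Ttf1 KO at L2C they were 258, and 761 with DESeq2, 769 with no filter and 482 on the compared groups alone. Without the WT libraries with a second index number they were 2043 in Zfp622 KO morulae (4321 otherwise). In the same fits they were 2132 for the Ttf1 interaction (3992) and 646 for the Zfp622 interaction (2010). The knockouts at morula differed in 0 to 1 members with 1 library left out. The share at L2C was 0.118 percentage points higher in Ttf1 KO than in Zfp622 KO, -0.0226 without members facing the nuclear copy, and -0.119 to 0.346 with 1 library left out. Under total counts the stage change of mt-Nd6 was -0.39, and all genes in Ttf1 KO L2C split into 141 higher and 96 lower (124 and 134 otherwise). The causes were not tested.

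Replicate numbers did not pair libraries: over 24 pairs of same-numbered libraries the correlation ran from -0.198 to 0.104. With the replicate number as a block the counts were 1 and 0 at L2C, 20 and 15 at morula (Ttf1 KO, Zfp622 KO), 0 between knockouts, 22 between stages, and 12 and 6 for the interactions. Depth limits the tRNA genes, several of which had fewer than 1 CPM.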
